A study of Mus musculus with 16 samples.

Results

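The contractile and actin cytoskeleton genes described here were 39 members, fixed by symbol, of the 18990 genes in the deposited table. They comprised 6 actin isoforms, 6 myosin chains and the kinase that acts on them, 4 tropomyosins, 8 proteins bound to the thin filament, 8 crosslinkers and adhesion proteins, 5 LIM domain proteins and 2 transcription factors. The cells were primary mouse embryonic fibroblasts (MEFs) of wild-type BL6 mice, reprogrammed at passage 2. All groups carried tet-STEMCCA lentivirus (Oct4, Sox2, Klf4 and c-Myc, together OSKM) and rtTA lentivirus, and all were kept in medium with doxycycline, chiron (a GSK3 inhibitor), Alk5i (a TGF-beta inhibitor), ascorbic acid and LIF. They differed in the pooled siRNAs given before induction: non-targeting (nt), siWdr5, siBrca1 or siBard1. RNA came from days 3 and 6. Each of the 8 groups had 2 libraries, made from independent experiments, and the comparisons asked how each knockdown changed the course of early reprogramming. The cells are mixed cultures with viral transgenes, and in bulk RNA a smaller number of cells of a type cannot be told apart from less RNA per cell.

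Actin filaments pulled by myosin II give a fibroblast its stress fibers and its grip on the substrate. Smooth muscle alpha-actin marks myofibroblasts, the contractile state that cultured fibroblasts take up, which TGF-beta signaling and a stiff substrate favor. Many of these genes are driven by serum response factor (SRF), which binds a short A/T-rich motif called the CArG box together with the actin-sensing MRTF coactivators or with myocardin. Fibroblasts lose this mesenchymal program as they turn epithelial in early reprogramming.

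The 16 libraries held 11169738 to 26832534 reads in the table (median 14618683.5), and 3 reads corresponded to 0.115 to 0.260 CPM. Levels are given as CPM, that is 2 to the power of the deposited value, which includes a small prior count and so understates the change of genes with few reads. At day 3 Wdr5 was at 50.6 and 55.3 CPM in the siWdr5 libraries against 132 and 130.5 CPM in nt, Brca1 at 37.5 and 19.4 CPM in siBrca1 against 82.4 and 78.0 CPM, and Bard1 at 18.0 and 20.8 CPM in siBard1 against 30.5 and 29.1 CPM. All 3 targets fell at day 3, with log2 differences of -1.31 for Wdr5, -1.57 for Brca1 and -0.62 for Bard1, whereas none of them passed at day 6, when the differences were -0.27, 0.01 and 0.11. The targets also fell in other knockdowns at day 3: Bard1 in siBrca1 (-1.38) and siWdr5 (-1.03), Wdr5 in siBrca1 (-0.87) and siBard1 (-0.48), and Brca1 in siWdr5 (-0.86). The 10 fibroblast markers examined, among them Col1a1, Thy1 and Pdgfra, were present in every group.

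SRF's own binding motif was looked for in the RefSeq promoters of the members (GRCm38.p6, 250 bases before to 50 bases after each annotated start), of which 34 of 39 matched. Actg2, Actb, Myh11, Tagln and Myocd were the members without an entry. Only exact CArG boxes (CC, 6 bases of A or T, then GG) were counted. Boxes with a mismatch or outside this window were not looked for, so a member without a match may still have one. The exact box, whose pattern reads the same on either strand, was present in 10 of the 34 matched members (29.4%): Acta1, Actc1, Actg1, Myl6, Myl9, Cnn2, Vcl, Fhl1, Fhl2 and Srf. Over all genes it was found in 488 of 27025 (1.81%). Counted by promoter, it was in 11 of the members' 41 (26.8%) and in 535 of all 32851 (1.63%). Whether SRF has a part in the members' changes was not tested. The windows of 6 members that lie upstream of the GENCODE gene are shown. Each has the box in capitals and is read along the gene's own strand, and 1 window holds a pair of boxes.
Acta1, chr8:123894819-123894868, minus strand: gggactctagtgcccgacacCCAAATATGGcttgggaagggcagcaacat
Actg1, chr11:120348556-120348605, minus strand: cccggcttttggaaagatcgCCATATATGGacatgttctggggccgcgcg
Myl9, chr2:156775283-156775332, plus strand: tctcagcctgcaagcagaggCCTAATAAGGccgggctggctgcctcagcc
Cnn2, chr10:79988524-79988573, plus strand: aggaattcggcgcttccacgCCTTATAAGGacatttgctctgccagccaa
Vcl, chr14:20929151-20929200, plus strand: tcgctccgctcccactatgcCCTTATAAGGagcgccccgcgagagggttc
Srf, chr17:46556195-46556264, minus strand: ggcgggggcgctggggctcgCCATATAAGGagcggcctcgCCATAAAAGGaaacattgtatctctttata
The box of Acta1 began 73 bases before the RefSeq start, that of Actg1 90, Myl9 161, Cnn2 56 and Vcl 227 bases before, and Srf, which codes for the factor itself, carried boxes that began 82 and 62 bases before its start. A match describes the letters only, and members with large and with small changes were among those that held it.

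In nt cells at day 3, compared per exon length, Actb, the cytoplasmic beta-actin, was the most abundant member at 1874 CPM per kb of exon, the mean of 2 libraries. Acta2, smooth muscle alpha-actin, followed at 341 and Flna, filamin A, which crosslinks actin filaments, at 242 RPKM. At the low end stood Myocd, the gene of the SRF partner myocardin, Synpo2 and the cardiac actin Actc1, at 0.16, 0.42 and 0.44 RPKM. Beta-actin thus led the set, smooth muscle alpha-actin came next, and cardiac actin was barely present. The actin genes are similar in their coding sequence, and their values are uncertain as far as shared reads could be split between them. Tagln (SM22, a smooth muscle actin-binding protein) lay at only 1.6 RPKM, and 67.9% of its exon bases overlap genes on the other strand, Pcsk7 and Gm48529. Whether the counting used strand is not given in the sources used here, so Tagln is uncertain, as to a lesser degree are Vcl (25.5% shared, with Ap3m1), Cnn3 (18%) and Smtn (16.3%).

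At day 3 nearly the whole set was higher in all 3 knockdowns than in nt. In siWdr5, 35 of the 38 members tested rose and none fell (adjusted p < 0.05, limma), where 18.3% of all genes tested rose and 16.8% fell. In siBrca1, 37 rose and none fell, beside 25.4% and 21.8% of all genes, and in siBard1 30 rose and none fell, beside 8.67% and 5.87%. The members' median log2 differences were 1.00, 1.44 and 0.83 in this order of knockdowns, whereas the medians of all genes were -0.04, 0.00 and -0.02. Rises of more than 1 on the log2 scale were made by 18 members in siWdr5 (4.1% of all genes), 27 in siBrca1 (7.12%) and 15 in siBard1 (1.58%). The 3 comparisons share the nt libraries, so their directions are not independent of each other. Without the replicate 1 nt library the siBard1 count was 19, and over the other libraries left out in turn it was at most 28.

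**Figure D1:**
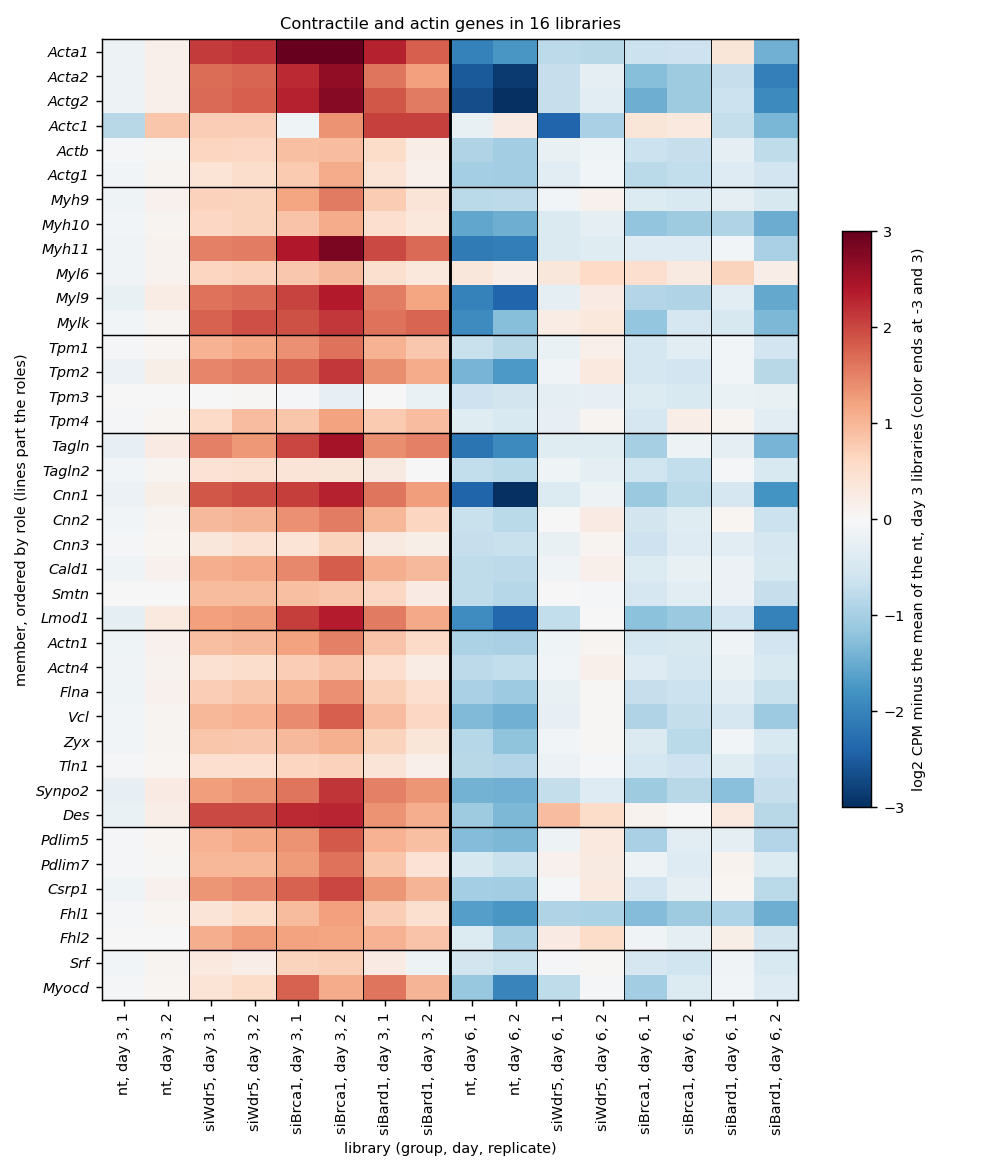
Log2 CPM of the 39 members (rows, ordered by role) in the 16 libraries (columns), relative to the mean of the nt libraries at day 3. Red cells fill the day 3 knockdown columns, and the nt day 6 columns are the darkest blue for most members; Tpm3 stays pale at day 3 and Myl6 is near white or pale red at day 6.

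Among the actins the muscle isoforms had the largest differences. Acta2 was at 671 and 832 CPM in nt, 2397 and 2505 CPM in siWdr5, 3503 and 4689 CPM in siBrca1 and 2270 and 1767 CPM in siBard1. Every knockdown library lay above both nt libraries, and the siBrca1 libraries above all others of that day. The log2 differences were 1.71, 2.44 and 1.42, each ± 0.17 (SE), with adjusted p of 1.4e-05, 7.64e-07 and 0.00029. Acta1, skeletal muscle alpha-actin, was at 9.83 and 12.2 CPM in nt and rose to 47.1 and 49.5 CPM in siWdr5, 87.2 and 105 CPM in siBrca1 and 54.2 and 38.1 CPM in siBard1. Its siBrca1 difference of 3.13 ± 0.16 (adjusted p = 2.23e-07), 8.76-fold, was the third highest of the 14028 genes tested, and its siBard1 difference of 2.05 ± 0.16 (adjusted p = 1.73e-05) the fifth highest. Actg2, the enteric smooth muscle gamma-actin, rose from 119.7 and 149 CPM to 436 and 463, 657 and 881, and 485 and 394 CPM in siWdr5, siBrca1 and siBard1.

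**Figure D2:**
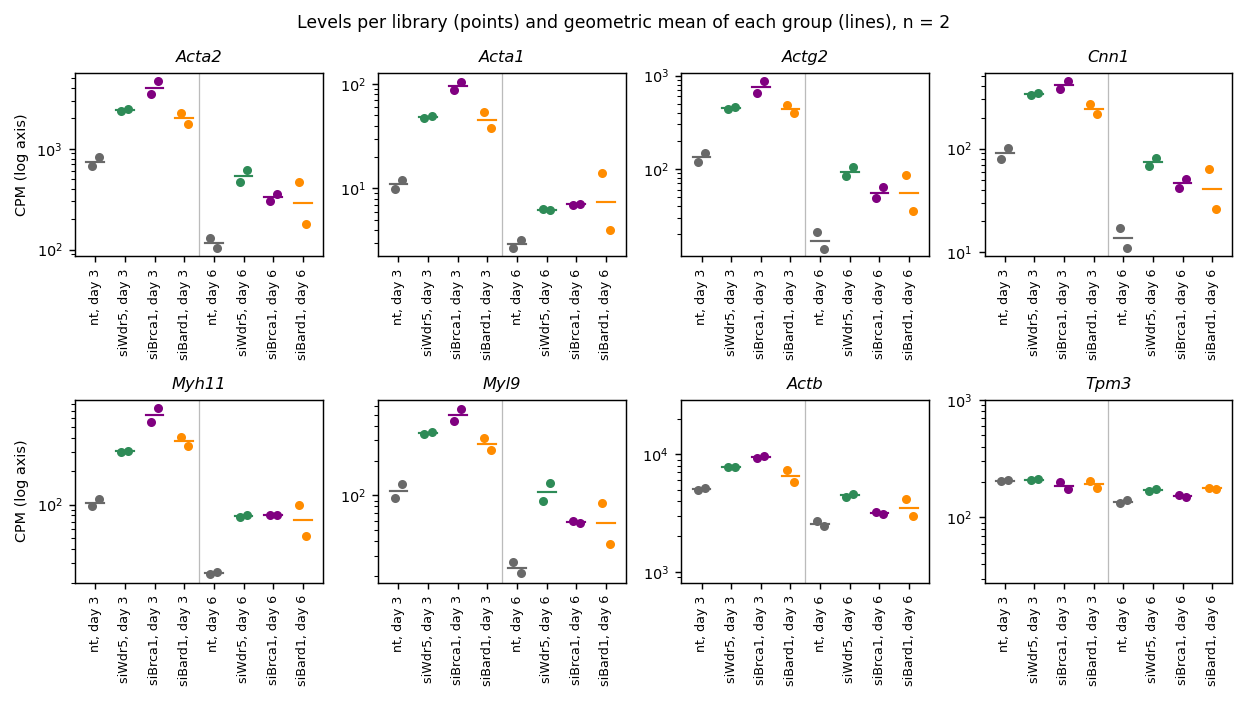
CPM on a log axis of 8 members in each library (points) with the geometric mean of each group (lines, n = 2), colored by knockdown. For Acta2, Acta1, Actg2, Cnn1, Myh11 and Myl9 the knockdown points lie above nt on each day, Actb moved less, and Tpm3 overlaps or nearly overlaps between groups at day 3.

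The cytoplasmic actins moved less. Actb was at 4933 and 5140 CPM in nt, 7836 and 7750 CPM in siWdr5, 9364 and 9601 CPM in siBrca1 and 7350 and 5815 CPM in siBard1. Its differences were 0.63, 0.91 and 0.38, each ± 0.18, with adjusted p of 0.0171, 0.00116 and 0.182, of which the last did not pass. Under quantile normalization, which changes the most abundant genes most, Actb passed in none of the knockdowns, and its siWdr5 difference was 0.14. Its siWdr5 call was also lost with any 1 of the 4 libraries left out (adjusted p of 0.0959 to 0.136). Actg1, cytoplasmic gamma-actin, rose by 0.47 in siWdr5 and 0.95 in siBrca1, each ± 0.13, with adjusted p of 0.0143 and 8.23e-05. The siWdr5 call of Actg1 was lost without the trend and with 3 of the 4 libraries left out in turn (adjusted p up to 0.143). Its siBard1 difference was 0.28 ± 0.13 (adjusted p = 0.171). Of the actin reads per exon length, Acta2 and Actg2 together took 16.1% and 18.6% in the nt libraries, 30.3% and 31.4% in siWdr5, 34.6% and 40.5% in siBrca1 and 31.1% and 30.9% in siBard1. The smooth muscle share of the actin messages was thus larger in every knockdown library than in either nt library. Actc1, at 0.40 and 1.28 CPM in nt and 2.94 and 2.94 CPM in siBard1, had too few reads to be tested.

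**Figure D3:**
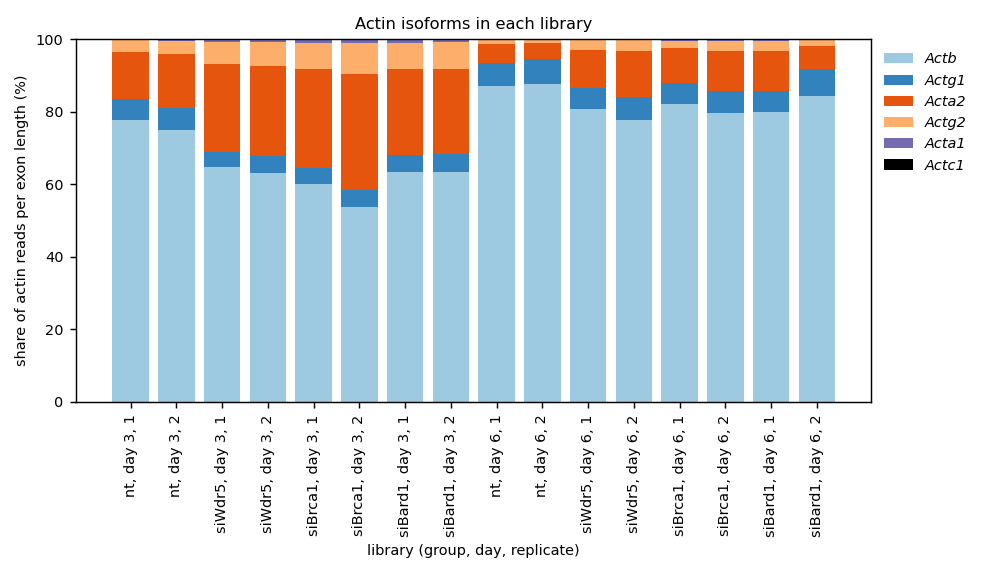
Share (%) of each of the 6 actin isoforms in the actin reads per exon length of each library. The Acta2 and Actg2 bands together fill 16.1% to 18.6% in nt at day 3, 30.3% to 40.5% in the knockdowns at day 3, 5.30% to 6.33% in nt at day 6 and 7.91% to 15.7% in the knockdowns at day 6.

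All 6 members of the myosin group rose in each knockdown at day 3. Myh11, the smooth muscle myosin heavy chain, was at 96.3 and 113 CPM in nt, 299 and 304 CPM in siWdr5, 551 and 732 CPM in siBrca1 and 409 and 339 CPM in siBard1. Its differences were 1.53, 2.61 and 1.84, each ± 0.14, with adjusted p of 6.41e-06, 2.23e-07 and 1.51e-05. Those of the nonmuscle heavy chains were smaller in value: Myh9 rose by 0.68, 1.37 and 0.57 and Myh10 by 0.64, 0.99 and 0.41. The difference between these genes' changes was not itself tested. Myl9, a regulatory light chain of smooth muscle and nonmuscle myosin, rose by 1.67, 2.20 and 1.35, each ± 0.15, from 94.5 and 127 CPM in nt, with adjusted p of 7.53e-06, 7.37e-07 and 0.000208. Mylk, the kinase that phosphorylates this light chain and so starts contraction, went from 25.4 and 28.7 CPM in nt to 91.4 and 104 CPM in siWdr5, 101 and 117 CPM in siBrca1 and 83.2 and 90.8 CPM in siBard1. It rose by 1.85 in siWdr5 and 1.69 in siBard1, each ± 0.12, with adjusted p of 1.57e-06 and 1.51e-05. Myl6, the essential light chain shared by most myosin II molecules, rose least in siBrca1 within the group, by 0.89.

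Tropomyosins, which lie along the filament and set which proteins reach it, separated by gene. Tpm2 was at 153 and 198 CPM in nt, 482 and 509 CPM in siWdr5, 598 and 764 CPM in siBrca1 and 461 and 375 CPM in siBard1. Tpm3, by contrast, was at 204 and 207 CPM in nt, 208 and 211 CPM in siWdr5, 198 and 173 CPM in siBrca1 and 205 and 179 CPM in siBard1. Tpm2 rose by 1.51, 1.96 and 1.25, Tpm1 by 1.10, 1.49 and 0.92 and Tpm4 by 0.74, 1.02 and 0.85, while Tpm3 passed in no knockdown, with differences of 0.03, -0.15 and -0.10 (adjusted p = 0.866, 0.262 and 0.544). Of the 38 members tested, Tpm3 was the only one with a negative difference in siBrca1.

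Among the proteins bound to the thin filament, the smooth muscle calponin had larger differences than its broadly expressed relatives. Cnn1, the smooth muscle form, was at 80.1 and 101 CPM in nt, 329.7 and 349 CPM in siWdr5, 379.7 and 448 CPM in siBrca1 and 273 and 215 CPM in siBard1. Its differences were 1.91, 2.19 and 1.43, each ± 0.14, with adjusted p of 2.73e-06, 3.77e-07 and 8.71e-05. The more widely expressed Cnn2 rose by 1.00, 1.44 and 0.81, and Cnn3 by 0.40 and 0.55 in siWdr5 and siBrca1, with 0.22 in siBard1 (adjusted p = 0.192). Tagln rose by 1.40, 2.25 and 1.45, each ± 0.22 (adjusted p of 0.000317, 6.19e-06 and 0.000985), from 2.71 and 3.79 CPM to 12.8 and 18.0 CPM in siBrca1, on the few reads assigned to it. Lmod1, leiomodin, which nucleates filaments in smooth muscle, was at 29.1 and 43.1 CPM in nt and at 149 and 182 CPM in siBrca1, a rise of 2.22 ± 0.18 (adjusted p = 1.61e-06). Cald1, caldesmon, and Smtn, smoothelin, rose in each knockdown, whereas Tagln2, the broadly expressed paralog of Tagln, rose by 0.45 and 0.38 in siWdr5 and siBrca1 and did not pass in siBard1 (0.14, adjusted p = 0.423).

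All 8 crosslinkers and adhesion proteins rose in siWdr5 and in siBrca1, and 6 of 8 in siBard1. Des, desmin, an intermediate filament protein of muscle that ties contractile units together, was at 30.7 and 40.1 CPM in nt, 139 and 139 CPM in siWdr5, 164 and 171 CPM in siBrca1 and 88.6 and 74.6 CPM in siBard1. It rose by 1.98 ± 0.13 in siWdr5 and 2.26 ± 0.13 in siBrca1 (adjusted p = 1.57e-06 and 2.84e-07), and by 1.21 in siBard1. Synpo2, myopodin, a Z-disc and stress fiber protein, rose from 4.69 and 6.52 CPM in nt to 15.8 and 13.7 CPM in siBard1, a difference of 1.42 ± 0.20 (adjusted p = 0.000745). Vcl, vinculin, which couples actin to adhesions, rose by 1.01, 1.61 and 0.78, and Zyx, zyxin, a tension-sensing stress fiber protein, by 0.82, 1.02 and 0.51. Actn1 and Actn4, the alpha-actinins that bundle filaments, rose in siWdr5 and siBrca1, but Actn4 (0.36, adjusted p = 0.0724) and the integrin linker Tln1, talin (0.27, adjusted p = 0.127), did not pass in siBard1. All 5 LIM domain genes, Pdlim5, Pdlim7, Csrp1, Fhl1 and Fhl2, whose proteins dock on stress fibers and Z-discs, rose in every knockdown, by 0.48 (Fhl1 in siWdr5) to 1.89 (Csrp1 in siBrca1).

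Of the 2 transcription factors, neither rose in siWdr5. Srf was at 65.6 and 72.8 CPM in nt, 84.7 and 79.1 CPM in siWdr5, 110.0 and 114 CPM in siBrca1 and 82.4 and 61.7 CPM in siBard1. It rose in siBrca1 by 0.70 ± 0.13 (adjusted p = 0.00065), and its differences of 0.24 in siWdr5 and 0.04 in siBard1 did not pass (adjusted p of 0.16 and 0.849). The siBard1 libraries lay on either side of the nt range. Myocd was scarce, at 1.13 and 1.22 CPM in nt, 1.57 and 1.73 CPM in siWdr5, 3.97 and 2.53 CPM in siBrca1 and 3.57 and 2.37 CPM in siBard1. It rose by 1.44 in siBrca1 and 1.31 in siBard1, each ± 0.31, with adjusted p of 0.00193 and 0.0144. Its siWdr5 difference of 0.49 ± 0.31 did not pass (adjusted p = 0.24). With libraries left out in turn, the siBard1 call was lost without either nt library and without siBard1 replicate 1 (adjusted p of 0.0712 to 0.111).

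**Figure D4:**
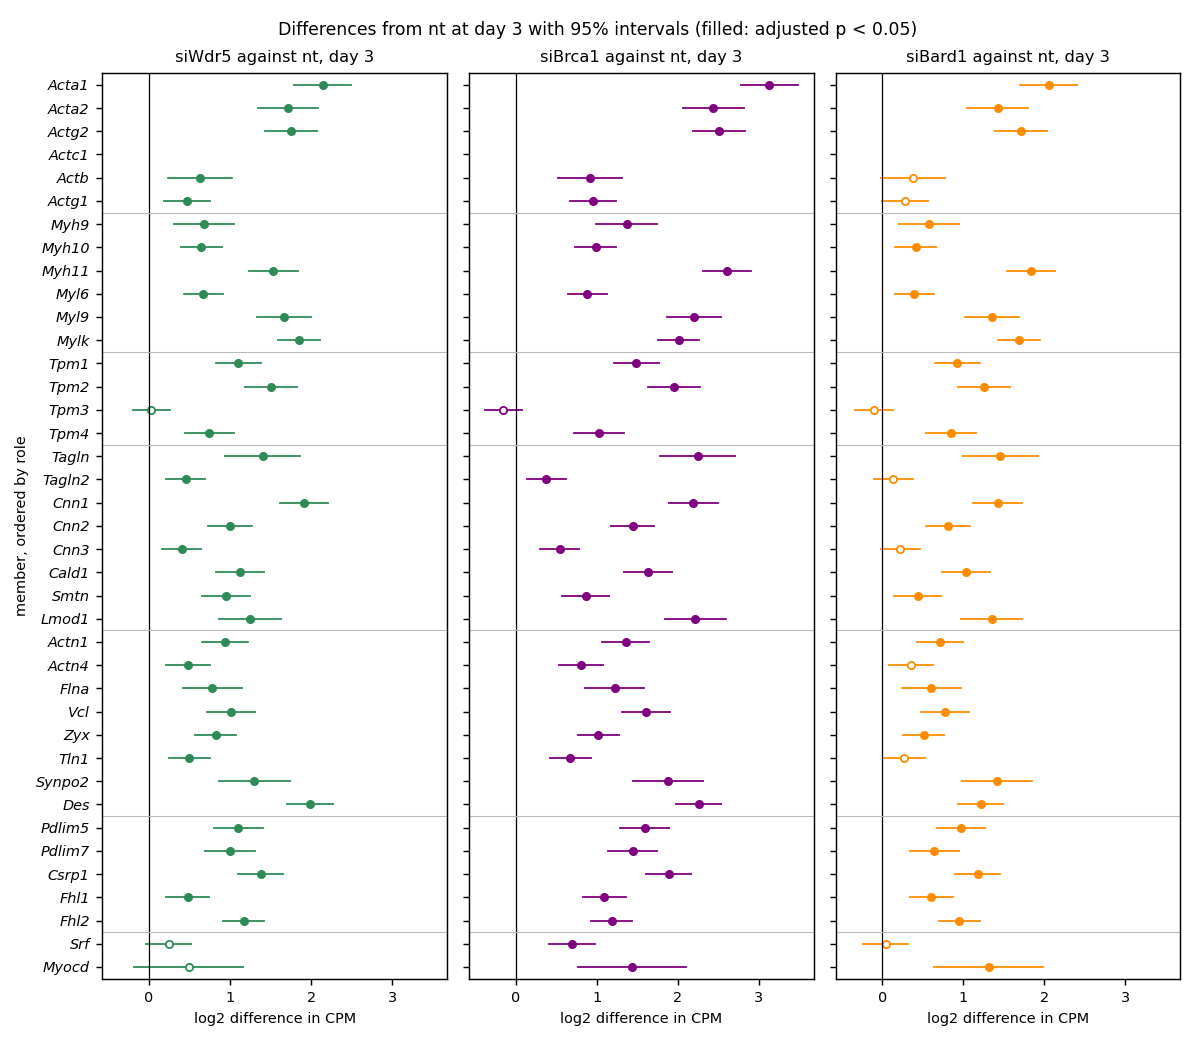
Log2 difference in CPM from nt at day 3 for each member (points) with its 95% interval (lines), in siWdr5, siBrca1 and siBard1; filled points passed at adjusted p < 0.05, and Actc1 was not tested. Nearly all points lie right of 0, from 3.13 for Acta1 in siBrca1 down to -0.15 for Tpm3 in the same knockdown.

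The knockdowns also differed from each other at day 3. The mean of the siBrca1 libraries was the highest of the 4 groups for 35 of the 39 members, and the nt mean the lowest for 38. This order of means was not counted over all genes, so how far the members depart from them in it is not known. Compared directly, where 10.2% of all genes were higher and 768 of the 14028 lower, 18 members were higher in siBrca1 than in siWdr5 and none lower. Myh11 (1.07 ± 0.14, adjusted p = 0.000318), Acta1 (0.99 ± 0.16, adjusted p = 0.00156) and Lmod1 (0.97 ± 0.18, adjusted p = 0.00267) had the largest of these differences. Against siBard1, 29 members were higher in siBrca1 and none lower (13.1% of all genes higher, 1168 of the 14028 lower), led by Acta1 (1.08), Des (1.04) and Acta2 (1.02). Only Cnn1 (0.49), Smtn (0.51) and Des (0.77) were higher in siWdr5 than in siBard1 (4.85% of all genes higher). These counts rest on single libraries: without siWdr5 replicate 1 only 2 members differed between siBrca1 and siWdr5 (4 without siWdr5 replicate 2 and 6 without siBrca1 replicate 2), and without siBard1 replicate 2 no member, and no gene at all, differed between siBrca1 and siBard1. The 3 members higher in siWdr5 than in siBard1 did not pass without either siWdr5 library or without siBard1 replicate 2, and 5 passed without siBard1 replicate 1. Without the mean-expression trend in the model, 4 members differed between siBrca1 and siWdr5 and 0 between siBrca1 and siBard1. Within siBrca1, replicate 2 was the higher library for 33 of 38 members, by a median of 0.26 on the log2 scale.

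In nt cells the same genes went down between the days. From day 3 to day 6, 36 of 38 members fell and none rose, where 27.1% of all genes fell and 19% rose, and the members' median difference was -1.03 beside -0.07 for all genes. Actg2 went from 119.7 and 149 CPM to 21.0 and 13.9 CPM, and its difference of -2.97 ± 0.30 (adjusted p = 3.81e-06) was the lowest of the 14028 genes tested. Cnn1 went from 80.1 and 101 CPM to 16.9 and 10.9 CPM (-2.73 ± 0.29, adjusted p = 6.11e-06), and Acta2 from 671 and 832 CPM to 131 and 103 CPM (-2.69 ± 0.31, adjusted p = 9.35e-06). These smooth muscle genes took 3 of the 8 lowest places among all genes. Myl9 (-2.21 ± 0.28), Lmod1 (-2.12 ± 0.35), Myh11 (-2.09 ± 0.21), Tagln (-2.05 ± 0.34) and Acta1 (-1.89 ± 0.36) followed, with adjusted p of 2.01e-05, 0.000164, 2.87e-06, 0.000191 and 0.000625. The genes with the smallest changes were again broadly expressed ones. Tpm4 (-0.41, adjusted p = 0.114) and Myl6 (0.27, adjusted p = 0.146) did not pass, and Myl6 was the one member above its day 3 level, at 239.5 and 217 CPM against 174 and 204 CPM. In the actin reads per exon length, the share of Acta2 and Actg2 was 6.33% and 5.30% at day 6, and that of Actb 87.1% and 87.6% against 77.7% and 75.0% at day 3.

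At day 6 siWdr5 cells still held the set above nt. Here 33 of 38 members were higher than nt and none lower, where 16.1% of all genes were higher and 5.7% lower, with a median difference of 0.93 beside 0.08 for all genes. Cnn1 was at 68.2 and 81.5 CPM against 16.9 and 10.9 CPM in nt (2.46 ± 0.34, adjusted p = 0.00362), Actg2 at 83 and 106 CPM against 21.0 and 13.9 CPM (2.45 ± 0.35, adjusted p = 0.00362), and Acta2 at 463 and 612 CPM against 131 and 103 CPM (2.20 ± 0.35, adjusted p = 0.00441). Srf, which had not passed at day 3, was higher by 0.60 ± 0.14 (adjusted p = 0.0142). Acta1, Myl6, Tpm3, Tpm4 and Myocd were the members that did not pass. The count depends on few libraries: it was 28 without siWdr5 replicate 1, 16 without nt replicate 1, 9 without nt replicate 2 and 0 without siWdr5 replicate 2, when 38 of all genes passed. In that last setting all 38 members were still above nt, with a median difference of 0.80 beside 0.05 for all genes.

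In siBrca1 at day 6 no member passed, as no gene in the table did (0%), in limma and in limma-voom alike. All 38 members tested were above nt, as were 7700 of the 14028 genes. The members' median was 0.46 beside 0.03 for all genes, and 20 members had an unadjusted p under 0.05, as had 1123 of the 14028 genes. The members were measured in the same libraries, so they are not independent of each other. For 36 of the 39 members both siBrca1 libraries lay above both nt libraries, where 21.9% of all genes tested did so. Myh11 was at 80.2 and 80.3 CPM against 24.0 and 24.9 CPM (1.71 ± 0.22, adjusted p = 0.0982), and Cnn1 at 41.8 and 51.0 CPM (1.76 ± 0.34, adjusted p = 0.33).

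In siBard1 at day 6 Myh11 alone passed (1.56 ± 0.22, adjusted p = 0.041), where 0.0784% of all genes were called higher. The median over the members was 0.53 beside 0.06 for all genes. Of the members, 28 had an unadjusted p under 0.05 (1908 of the 14028 genes), and 33 of 39 had both siBard1 libraries above both nt libraries (34.2% of all genes tested). The pair of siBard1 libraries stood apart from each other: replicate 1 was higher for 37 of 38 members, by a median of 0.50, where the median absolute difference over all genes was 0.16. Acta2, for instance, was at 466 and 179 CPM and Acta1 at 14.0 and 4.0 CPM. Without replicate 1 the members' median was 0.31 and 1 member passed, and without replicate 2 it was 0.79 and 9 passed. No member passed (0) without either nt library, without the trend, with only the 4 compared libraries, under median centring or quantile normalization, or in limma-voom.

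At day 6 the siWdr5 mean was the highest of the 4 groups for 34 of 39 members and the nt mean the lowest for 38, an order again not counted over all genes. In direct comparisons, which were added after these values were seen, Myh10 (0.76, adjusted p = 0.0472) and Actg1 (0.56, adjusted p = 0.0473) were higher in siWdr5 than in siBrca1 (1.5% of all genes higher), and neither passed with any 1 library left out. Against siBard1 no member passed in limma (0.435% of all genes higher), with 1 in limma-voom and 12 without siBard1 replicate 1. Set against nt cells 3 days earlier, a comparison also added after the values were seen, siWdr5 cells at day 6 had both libraries below both nt day 3 libraries for 13 members, above them for 5 (Myl6, Mylk, Des, Pdlim7 and Fhl2) and overlapping for 21, where 34% of all genes were below and 37.1% above. In siBrca1 34 members lay below (39.4% of all genes) and in siBard1 26 (39.6%).

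Whether the effect of each knockdown differed between the days was tested as an interaction in all 16 libraries. For siWdr5 no member passed in limma (4.43% of all genes did so in either direction), with 2 of 38 at an unadjusted p under 0.05 (3323 of the 14028 genes). The members' median interaction was 0.16 beside 0.12 for all genes. For siBrca1 the difference from nt was smaller at day 6 than at day 3 for 18 members and larger for none. Over all genes the interaction passed below 0 for 10.3% and above 0 for 1438 of the 14028. The members' median was -0.84 beside 0.01 for all genes. Acta1 (-1.88 ± 0.52, adjusted p = 0.0187), Synpo2 (-1.40 ± 0.34, adjusted p = 0.011), Csrp1 (-1.30 ± 0.30, adjusted p = 0.00824) and Mylk (-1.27 ± 0.35, adjusted p = 0.0199) were the largest. Acta2 (-0.93, adjusted p = 0.137), Cnn1 (-0.43, adjusted p = 0.499) and Tagln (-0.76, adjusted p = 0.284) did not pass. The siBrca1 count was 5 without nt day 3 replicate 1 or without siBrca1 day 3 replicate 2, and 11 without nt day 6 replicate 1. For siBard1 no member passed (0.0499% of all genes), with 4 of 38 at an unadjusted p under 0.05 (2694 of the 14028 genes).

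**Figure D5:**
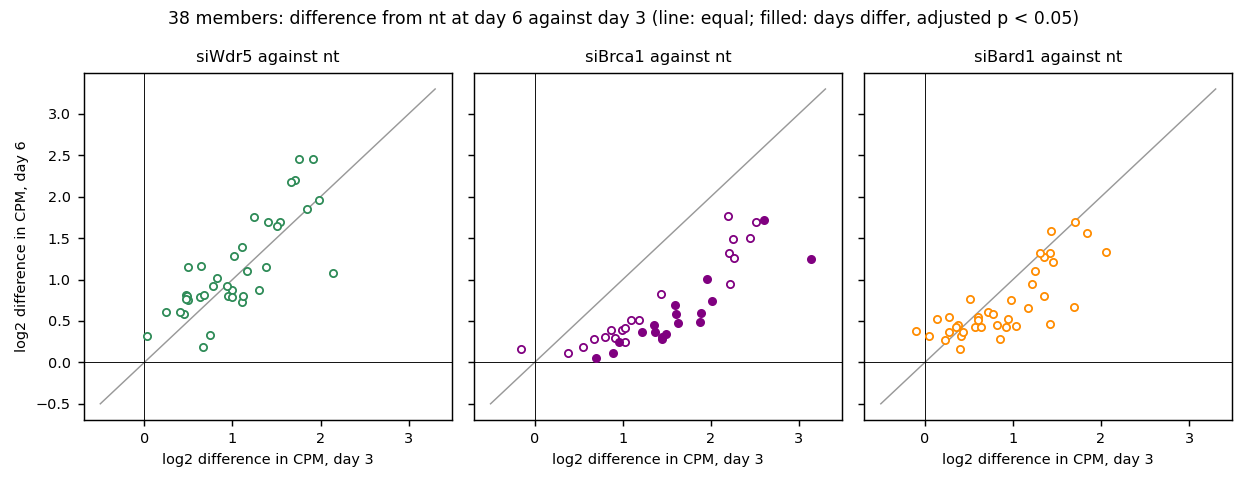
Log2 difference in CPM from nt at day 6 (vertical) against day 3 (horizontal) for the 38 members tested, 1 panel per knockdown; the line marks equal differences and filled points passed the interaction test. Points of siWdr5 scatter around the line, those of siBrca1 lie below it with 1 exception, Tpm3, and none is filled for siWdr5 or siBard1.

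As a share of all reads in the table, the 39 members took 1.52% and 1.75% in nt at day 3, 2.72% and 2.74% in siWdr5, 3.48% and 4.10% in siBrca1 and 2.81% and 2.59% in siBard1. At day 6 they took 0.915% and 0.895% in nt, 1.46% and 1.58% in siWdr5, 1.11% and 1.22% in siBrca1 and 1.40% and 1.07% in siBard1. On either day every knockdown library was above both nt libraries, and every day 6 library was below every day 3 knockdown library.

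Genes that act on the same filaments but are not members were examined in the same tests. Of 64 such genes, in 4 lists, 37 rose and none fell in siWdr5 at day 3, 46 rose and 3 fell (Diaph1, Diaph3 and Fmnl2, all formins that elongate filaments) in siBrca1, and 27 rose and none fell in siBard1, with medians of 0.42, 0.61 and 0.29. Of all genes, 18.3%, 25.4% and 8.67% rose and 16.8%, 21.8% and 5.87% fell in these comparisons. Of the 20 focal adhesion adaptors, 15, 18 and 11 rose, with Palld, palladin, at 1.56, 1.83 and 1.13 and Tns1, tensin, at 1.27, 1.51 and 0.83. Of the 26 genes of actin turnover and nucleation, 13, 14 and 10 rose, among them the depolymerizing factor Dstn (0.88, 1.36 and 0.87) and the monomer-binding Tmsb4x (0.99, 1.04 and 0.68). The SRF coactivators Mkl1 and Mkl2, which code for MRTF proteins, rose in siWdr5 (0.67 and 0.52) and siBrca1 (0.64 and 0.33), and Mkl1 in siBard1 (0.37, adjusted p = 0.0469). In nt from day 3 to day 6, 33 of the 64 fell, Mkl1 (-0.81) and Mkl2 (-0.46) included, and 6 rose, where 27.1% of all genes fell and 19% rose. At day 6, 22 of the 64 were higher and 3 lower (Capza1, Capza2 and Pdlim2) in siWdr5, where 16.1% of all genes were higher and 5.7% lower. Mkl1 was at 1.04 and Mkl2 at 0.73 in siWdr5, and none of the 64 passed in siBrca1 or siBard1.

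The summed level of the 10 fibroblast markers was 7752 to 8747 CPM in nt at day 3, 13703 to 14234 CPM in siWdr5, 11558 to 12716 CPM in siBrca1 and 9650.3 to 11239 CPM in siBard1, and at day 6 it was 5102 to 5337 CPM in nt, 9251 to 12715 CPM in siWdr5, 6279.9 to 6633 CPM in siBrca1 and 8095 to 8102 CPM in siBard1. By gene, 4 of the 10 rose and 3 fell in nt from day 3 to day 6, with a median of 0.61, where 19% of all genes rose and 27.1% fell. Of these markers 9 rose in siWdr5 at day 3, 6 rose and 1 (Dcn) fell in siBrca1, and 1 (Dcn) fell in siBard1. Over all genes, 18.3%, 25.4% and 8.67% rose at day 3 in siWdr5, siBrca1 and siBard1, and 16.8%, 21.8% and 5.87% fell. The 8 epithelial and reprogramming markers, among them Cdh1 and Epcam, had lower sums in the knockdowns at day 3, with 49.9 to 73.4 CPM in nt at day 3 and 20.9 to 21.3, 23.8 to 38.1 and 39 to 47.2 CPM in siWdr5, siBrca1 and siBard1. By gene, 4, 3 and 1 of the 8 fell in this order, and 1, Krt18, rose in siBrca1. At day 6 these markers summed to 612 to 794 CPM in nt and 364 to 522, 628 to 689 and 453 to 557 CPM in the same order, with siBrca1 within the nt range. By gene, 3 of the 8 were lower in siWdr5 at day 6 (5.7% of all genes), and none passed in siBrca1 or siBard1. Of 9 smooth muscle and pericyte markers, which include the members Myh11, Actg2 and Lmod1, 8 rose in siWdr5 and siBrca1 and 6 in siBard1 at day 3, Rgs5 among them (1.87, 1.74 and 1.66). At day 6, 4, 0 and 1 of them were higher than nt, beside 16.1%, 0% and 0.0784% of all genes. In nt over time 2 of these 9 rose and 3, the members, fell, with a median of -0.11. Of 13 skeletal muscle markers 8 were in the table, without Myod1 and Myog, and summed to 11.1 to 20.9 CPM over the 4 groups at day 3. At day 6 they summed to 117 to 125 CPM in nt, 31.5 to 74.0 CPM in siWdr5 (3 of 4 tested lower), 97.0 to 344 CPM in siBrca1 and 113 to 153 CPM in siBard1. Of 8 cardiac markers 4 were in the table, at 2.68 to 5.4 CPM at day 3. The 5 endothelial markers summed to 24.5 to 59.3 CPM at day 3, mostly Tek. The 4 of 5 macrophage markers in the table, without Ptprc, summed at day 3 to 6.50 to 7.45 CPM in nt, 11.3 to 13.4 CPM in siWdr5, 15.6 to 16.7 CPM in siBrca1 and 7.38 to 8.13 CPM in siBard1, and of the 3 tested 1 rose in siWdr5 and 2 in siBrca1. The part of cell composition in the members' differences was not tested.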

How the data were processed

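The sources are 16 RNA-seq libraries, made from total RNA after depletion of ribosomal RNA. The authors aligned paired-end reads to mouse (mm10, GRCm38) with STAR 2.5.2b and computed log2 CPM with edgeR 3.20.9, as the submitters' processing notes name them. What was deposited is a table of 18990 genes in log2 CPM, with library scaling and a prior count; the read counter, annotation and strand setting are not given in the sources used here. All values could be turned back into whole reads (100% within 0.01 reads), used for library sizes, shares and the limma-voom alternative. Precision at low levels is bounded by 3 reads, which covers counting error only.

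Tests took the 14028 genes (38 of 39 members) whose average log2 CPM reached 0. limma 3.58.1 with a mean-expression trend was fitted in R 4.3.3 to the 8 libraries of a day with 1 mean per group, and to all 16 for the course of nt and the interactions. Its estimates were checked for bias on simulated independent counts, which lacked the shifts that members share within a library. P-values are two-sided and Benjamini-Hochberg adjusted over all genes; passed, rose and fell mean adjusted p < 0.05. SE and intervals (95%) are limma's moderated values. P-values rest on the spread between replicate libraries, pooled over all groups in a fit and moderated across genes. With 2 libraries per group, they do not measure the spread of the compared groups alone. Full statistics are given for up to 8 members with the largest passed change whose groups did not overlap, in each day 3 comparison and in nt over time, and for Acta2, Tagln, Cnn1, Myl9, Myh11, Actb, Actg1, Srf and Myocd at day 3; of other lists up to 4 genes with the largest passed change, with exceptions (the 3 genes that fell, and values repeated across groups) chosen after their values were seen. Of the 4 lists of other genes, 1 is not reported here by itself. Gene positions and exon lengths are from GENCODE vM21, promoters from RefSeq. The members and lists were chosen with earlier results of these data known. Alternatives were a replicate block, no filter or a stricter one, no trend, log2(CPM + 1), median centring, quantile normalization, limma-voom, only the 4 compared libraries, each library left out, and a second threshold of 1 on the log2 difference.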

Additional observations from a re-analysis of the deposited data

Results flagged for a closer look

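The effect of siBrca1 differed between the days for 18 members, each with a smaller difference from nt at day 6 than at day 3 in the interaction test of limma over 16 libraries. The interaction was -1.88 for Acta1 and -0.70 for Actg1 among the actins. In the myosin group it was -0.995 for Myh9, -0.89 for Myh11, -0.77 for Myl6 and -1.27 for Mylk. Tpm1 had -1.14, Tpm2 -0.95, Cnn2 -1.16 and Cald1 -1.16. Among crosslinkers and adhesion proteins it was -0.91 for Actn1, -0.86 for Flna, -1.03 for Vcl and -1.40 for Synpo2, and among LIM domain genes -0.90 for Pdlim5, -1.14 for Pdlim7 and -1.30 for Csrp1. Srf had -0.64. The adjusted p ranged from 0.00311 (Cald1) to 0.0492 (Pdlim5).

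Actc1 was above both nt libraries in siBard1 at day 3 (2.94 and 2.94 against 0.40 and 1.28 CPM) and below both at day 6 (0.44 and 0.28 against 0.62 and 0.85 CPM), a difference of -3.10 between the days' log2 differences. This was not tested, since the gene was under the filter on low values, and its day 6 levels are within a few reads of the 3-read limit.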

How the results depend on the processing

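Of all values recomputed under the alternatives, 223 counts and 539 single-gene values kept their direction and side of the threshold (counts within 1.5 times), 56 counts moved further, 15 named-gene calls were lost, 1 was gained, and 2 reversed: the siBard1 difference of Srf at day 3, which had not passed, was -0.03 without nt replicate 1 and -0.16 without siBard1 replicate 1 (range with libraries left out -0.16 to 0.25). The cause was not tested.

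With libraries left out in turn, members higher at day 3 ranged from 26 to 34 in siWdr5, 36 to 37 in siBrca1 and 19 to 28 in siBard1, and none was lower (0). At day 6, 0 to 28 passed in siWdr5, 0 to 0 in siBrca1 and 0 to 9 in siBard1. In nt over time 33 to 36 fell and 0 rose. Interactions ranged from 0 to 0 for siWdr5, 5 to 21 for siBrca1 and 0 to 1 for siBard1. Members differing at day 3 were 2 to 25 between siBrca1 and siWdr5, 0 to 33 between siBrca1 and siBard1 and 0 to 5 between siWdr5 and siBard1, and at day 6 0 to 0 between siWdr5 and siBrca1 and 0 to 12 between siWdr5 and siBard1.

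With the added threshold of 1, the counts were 18 (siWdr5 day 3), 15 (siBard1 day 3), 16 (siWdr5 day 6), 21 (nt fall), 9 (siBrca1 interaction), 1 (siBrca1 and siWdr5), 3 (siBrca1 and siBard1), 0 (siWdr5 and siBard1, day 3) and 0 (siWdr5 and siBrca1, day 6). Of the 14028 genes, 575, 222 and 467 were higher in the first 3 of these, 565 fell in nt and 651 had a negative siBrca1 interaction. In the last 4, the first-named knockdown was higher for 439, 205, 165 and 72 genes. Quantile normalization gave 1 member lower in siBrca1 at day 3, 1 higher in nt at day 6, 0 for siBard1 at day 6 and 0 between siWdr5 and siBrca1 at day 6. With only the 4 compared libraries, 1 passed in siBrca1 and 0 in siBard1 at day 6, 1 was higher in nt at day 6, and 18 (siBrca1 and siBard1), 5 (siWdr5 and siBard1) and, at day 6, 7 (siWdr5 and siBrca1) differed. Without the trend the counts were 0 (siBard1 day 6), 4 (siBrca1 and siWdr5), 0 (siBrca1 and siBard1), 1 (siWdr5 and siBard1) and 0 (siWdr5 and siBrca1, day 6); without the filter, 5, 1 and 0 for siBrca1 and siWdr5, siWdr5 and siBard1, and siWdr5 and siBrca1 at day 6. Median centring and limma-voom each gave 0 for siBard1 at day 6, and limma-voom 1 between siWdr5 and siBard1 at day 6.

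Replicate numbers do not pair the libraries by label, and the mean correlation of same-numbered deviations was 0.02 at day 3 and 0.11 at day 6. With the replicate block, 6 members differed between siWdr5 and siBrca1 and 2 between siWdr5 and siBard1 at day 6; no other count of members moved by over 1.5 times. Calls of Actb in siWdr5 were lost without the filter (adjusted p = 0.0802, limma) and under quantile normalization, and with any 1 of the 4 compared libraries left out. Against nt, the smallest member difference that passed was 0.38 at day 3 (Tagln2 in siBrca1) and 0.58 at day 6 (Tagln2 in siWdr5).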
